A study of Macaca mulatta with 24 samples.

Results

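Ribosomal protein genes were followed in the jejunum of rhesus macaques after total body irradiation (TBI). The set held every probe whose gene symbol in the authors' normalized table began with RPL or RPS followed by a digit, or with RPLP, apart from RPS27L and the S6 kinase symbols beginning with RPS6K. This rule took 191 of the 43603 probes on the array and 61 of its 16094 gene symbols. Unirradiated controls were compared with animals that had received 6.7 Gy or 7.4 Gy and were sampled on day 4, 7 or 12. There were 4 arrays in the control group and in each group of days 4 and 7, and 2 arrays in each day 12 group, 24 in all, with 1 array for each sample. The control arrays were labelled day 4 and served as the baseline for every day. The labels name no other treatment, and RNA came from an excised length of jejunum with no separation of cell types described.

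The ribosome is built from a small subunit, whose proteins are named RPS, and a large subunit, whose proteins are named RPL, each assembled on ribosomal RNA in the nucleolus. RPLP0, RPLP1 and RPLP2 form the stalk of the large subunit, which recruits the elongation factors. Most of these mRNAs begin with a terminal oligopyrimidine tract and are translated together when the mTOR kinase is active, and in the intestine they are abundant in the dividing cells of the crypt. Several free ribosomal proteins also bind MDM2, the ubiquitin ligase that keeps p53 low. Ribosomal protein genes have many processed pseudogenes that are nearly identical to their mRNA, so a probe named for one gene may also have read such copies, and its gene assignment is uncertain to that extent. RPL5, RPL11, RPS6, RPS19, RPL22L1, RPL36A, RPL36AL and RPL39L were not among the symbols and were not analysed here.

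Of the 191 probes, 187, covering all 61 symbols, passed the filter on dim probes, which asked for a signal well above background on each array of some group, and 185 had such a signal on all 24 arrays. The 4 untested probes were the second RPL10L probe, 1 of 3 RPL27 probes, 1 of 3 RPL32 probes and the second RPL3L probe. The tested probes comprised 102 for 30 large-subunit genes, 65 for 23 small-subunit genes and 11 for the 3 stalk genes. The other tested probes were 8 for the paralogs RPL3L, RPL7L1, RPL10L and RPL26L1, and 1 for RPS19BP1, a binding partner of RPS19 that is itself no ribosomal protein. Levels below are log2 processed signal minus the 75th percentile of the same array, and changes are differences between mean levels on that scale. Within groups the probes were tighter than the array as a whole, with a median SD of 0.213 against 0.329 over the 28168 probes tested. Their median level was 6.23 against −0.86, so bright probes were set beside mostly dimmer ones.

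The lowest signal above background was raised on slides 4 and 5, and less so on the 2 day 4 arrays of slide 6, and the share of probes well above background ranged from 39.4% to 87.7% over the 24 arrays. Slides 5 and 6, which made up the second scan day, carried no control array. The tissue itself also varied: FABP6, an ileal bile acid binding protein, had a mean level of −2.13 in controls, 2.84 and 2.48 on day 4 at the lower and the higher dose, −0.03 and −0.93 on day 7, and 5.15 and 1.08 on day 12. GATA4, a transcription factor of the proximal small intestine, was 1.01 and 1.20 lower than control on day 4 (adjusted p = 0.0355 and 0.0215, limma). Whether the sampled position along the intestine differed between groups was not tested.

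The arrays also fell into a pair of classes by the Y-linked members of the set. RPS4Y2 encodes a Y-chromosomal copy of the small-subunit protein RPS4. Its level was between 4.77 and 5.42 on 12 arrays and between −4.11 and −2.99 on the other 12. The high arrays were replicates 1 and 2 of every 4-array group and replicate 1 of both day 12 groups. The RPS4Y1 probe A_01_P1696741, described as Y-linked, followed the same division in the 4-array groups, with levels of 4.13 to 5.35 on replicates 1 and 2 and of −1.18 to 0.35 on replicates 3 and 4. EIF1AY, a Y-linked translation factor outside the set, had medians of 1.92 and −5.77 on these arrays.

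The methods describe all animals as male, and 12 libraries went against that in these 3 Y-linked probes. Every group held both classes equally, so no comparison between groups set one class against the other. The 5 other RPS4Y1 probes carry an accession that the reference table pairs with RPS4X, the X-chromosomal copy, and they are described as X-linked. Probe A_01_P1795211 of these lay at 5.10 to 6.25 on replicates 1 and 2 of the 4-array groups and at 6.00 to 6.69 on replicates 3 and 4. It was higher on the latter in median, 6.30 against 5.67, and the ranges overlapped. The symbol RPS4Y1 therefore mixes different transcripts, and RPS4X was read under it. Changes of RPS4Y2 between groups are not given, since each group mixed both classes.

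**Figure D1:**
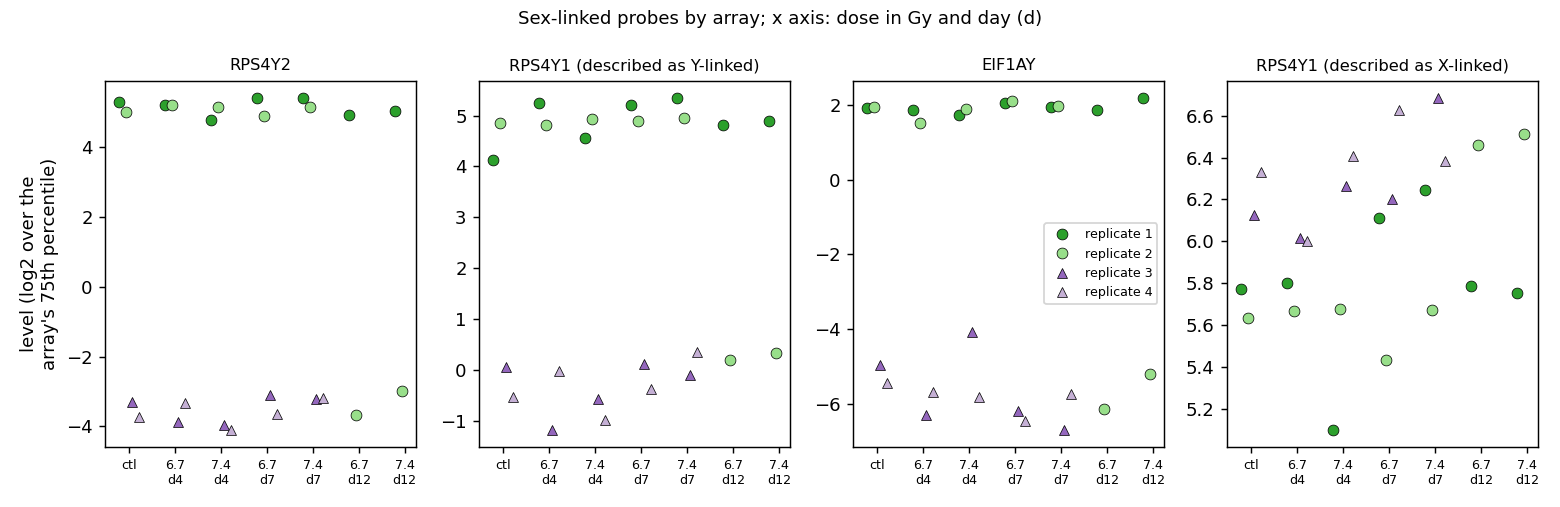
Levels of RPS4Y2, a Y-linked RPS4Y1 probe, EIF1AY and an RPS4Y1 probe described as X-linked, by group (x axis), as log2 over the array's 75th percentile (y axis); each point is 1 of the 24 arrays and its shape and colour give the replicate number. RPS4Y2 lay between 4.77 and 5.42 on 12 arrays and between −4.11 and −2.99 on 12, whereas the X-linked probe had no such gap.

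On day 4 the ribosomal protein transcripts as a group lay close to the controls. The median change of the 187 probes was 0.02 after 6.7-Gy TBI and −0.01 after 7.4-Gy TBI, and 105 and 86 probes (56.1% and 46.0%) were higher than control. Over all probes tested 43.2% and 41.7% were higher, with medians of −0.06 and −0.08. None passed at an adjusted p below 0.05 after 6.7 Gy, where 3.61% of all probes tested passed, and none passed after 7.4 Gy, where 5.37% passed (limma). At an unadjusted p below 0.05 there were 6 and 3 ribosomal protein probes (3.21% and 1.60%, against 21.2% and 24.5% of all probes), and the methods' t-test with Benjamini-Hochberg adjustment also gave 0 and 0. The middle of the 187 changes lay between −0.12 and 0.10 after 6.7 Gy and between −0.11 and 0.09 after 7.4 Gy, as the lower and upper quartiles. Under quantile normalization the day 4 medians were 0.12 and 0.10, so the sign of the 7.4-Gy median depended on the scaling.

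Every array of the 6.7-Gy day 4 group lay above every control array for 3 probes, against 6.68% of all probes, and below every control array for 7, against 7.66% of all probes. After 7.4 Gy 1 probe lay wholly above, against 7.27% of all probes, and 5 wholly below, against 10.1%. RPLP2 and RPL10 were among those on the low side. RPLP2 probe A_01_P1717146 had levels of 7.30, 7.35, 7.45 and 7.33 in controls and of 7.16, 6.97, 6.96 and 7.17 on day 4 after 6.7 Gy. All 4 irradiated values lay below all 4 control values, and the change was −0.29 ± 0.12 (SE, n = 4 and 4, adjusted p = 0.218).

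RPL10, the large-subunit protein that joins among the last during maturation of the 60S subunit, behaved likewise at probe A_01_P1684436, with 7.18, 7.14, 7.16 and 7.21 in controls against 7.02, 6.88, 6.84 and 6.89. These groups did not overlap either, and the change of −0.27 ± 0.12 did not pass (adjusted p = 0.234). Among probes well above background on all arrays of both groups, the largest negative changes were those of RPLP0 probe A_01_P1783191 (−0.50 after 6.7 Gy and −0.32 after 7.4 Gy), RPL32 (−0.33 and −0.35), RPS10 probe A_01_P1681486 (−0.44 after 6.7 Gy) and RPL7A probe A_01_P1742906 (−0.27 after 7.4 Gy). The smallest adjusted p among these was 0.176. RPL3L, the muscle-enriched paralog of RPL3, had a change of −0.85 after 6.7 Gy (adjusted p = 0.147), with 1 array at −3.28 and 3 at −2.19 to −2.10. The probe was well above background on 3 of these 4 arrays, so the size of the change is uncertain.

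Beside the RPL15 probe described below, the largest positive changes on day 4 were those of RPL26L1, RPL22 and RPS24. RPL26L1, a paralog of RPL26, was 0.95 higher than control after 6.7 Gy (adjusted p = 0.317), with control levels of 1.73, 1.34, 1.08 and −0.93 and irradiated levels of 1.62, 1.63, 1.97 and 1.79. Control replicate 4 stood far below the other controls, and without it the change was 0.37. The RPL22 probe A_01_P1809231 was 0.69 higher after 7.4 Gy and the RPS24 probe A_01_P1757401 0.42 higher after 6.7 Gy, and neither passed (adjusted p = 0.290 and 0.373).

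On day 7 nearly all ribosomal protein transcripts were higher than in controls by a small amount. After 6.7 Gy 179 of the 187 probes (95.7%) had a higher mean than control, with a median change of 0.23, and after 7.4 Gy 182 (97.3%) did, with a median change of 0.31. Over all 28168 probes tested 49.9% and 46.6% were higher, with medians of −0.00 and −0.03. All probes of a gene were higher than control for 56 of the 61 genes after 6.7 Gy and for 57 after 7.4 Gy. In whole tissue, more RNA per cell and more cells of a type rich in these transcripts cannot be told apart, nor can fewer cells and less RNA per cell.

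No single ribosomal protein probe passed on day 7 against control. In these comparisons 0.0639% of all probes passed after 6.7 Gy and 0.305% after 7.4 Gy (limma), and the smallest adjusted p among ribosomal protein probes was 0.115 and 0.0596. At an unadjusted p below 0.05 there were 26 and 55 probes, all of them higher (13.9% and 29.4%, against 10.5% and 16.4% of all probes in either direction), and the methods' t-test with adjustment gave 0 and 1. When all 24 arrays shared 1 model, which estimates the spread from more arrays, 11 ribosomal protein probes passed after 7.4 Gy, among 843 of the 28168 probes, and 13 did with the slide as a random block, among 1292.

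The level of the group on single arrays moved in the same way. The median level over the 187 probes was 6.07, 6.03, 6.27 and 6.04 on the control arrays, 6.43, 6.16, 6.28 and 6.48 on day 7 after 6.7 Gy, and 6.45, 6.31, 6.36 and 6.40 on day 7 after 7.4 Gy. All 4 arrays of the 7.4-Gy day 7 group lay above all 4 controls, whereas 1 array of the 6.7-Gy group overlapped with the highest control. On day 4 the 6.7-Gy arrays ranged from 5.98 to 6.21 and the 7.4-Gy arrays from 5.81 to 6.31, both overlapping with the controls.

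Slides 1 to 4 each carried a control array, so the same difference could be read within slides. On day 7 the ribosomal protein probes had a median difference from the control of the same slide of 0.31, 0.14, 0.07 and 0.40 for the 6.7-Gy arrays and of 0.28 and 0.35 for the 7.4-Gy arrays that shared a slide with a control. All 6 differences were positive. Every control array held position 1 of its slide, and every day 7 or day 12 array held position 3 or 4. Array position and these days cannot be told apart, also within a slide. With slide 5 left out the 7.4-Gy median was 0.26, and with slides 4 and 5 left out the day 7 medians were 0.17 and 0.24. On the 12 arrays with high RPS4Y2 the day 7 medians were 0.21 and 0.34, and on the 12 with low RPS4Y2 they were 0.23 and 0.24.

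**Figure D2:**
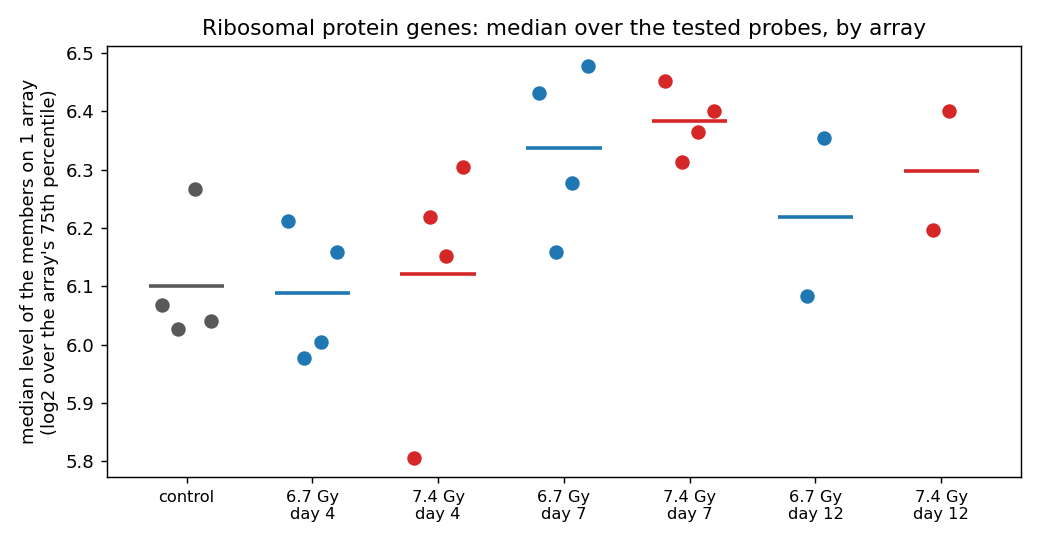
Median level of the 187 tested ribosomal protein probes on each of the 24 arrays (y axis, log2 over the array's 75th percentile), by group (x axis); lines are group means. The 4 arrays of 7.4 Gy day 7 sit between 6.31 and 6.45, above the controls at 6.03 to 6.27.

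Both subunits had the shift. After 6.7 Gy 100 of 102 large-subunit probes, 65 of 65 small-subunit probes and 11 of 11 stalk probes were higher than control on day 7, with medians of 0.25, 0.22 and 0.24. After 7.4 Gy these counts were 102, 64 and 11, with medians of 0.29, 0.31 and 0.31. Paralogs that carry a ribosomal protein name had 3 and 5 of 8 probes higher and medians of −0.14 and 0.03. RPL7L1, which acts in ribosome assembly, had 5 probes with changes from −0.42 to 0.02 after 6.7 Gy and from −0.07 to 0.25 after 7.4 Gy. RPL26L1 had changes of 0.72 and 0.54, which rest largely on the low control replicate 4, and the tested RPL10L probe had 0.54 and 0.64. None of these passed. The parent gene RPL7 had 5 probes between 0.20 and 0.35 and between 0.38 and 0.46. RPS19BP1, which is no ribosomal protein, had changes of −0.12 and −0.23.

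**Figure D3:**
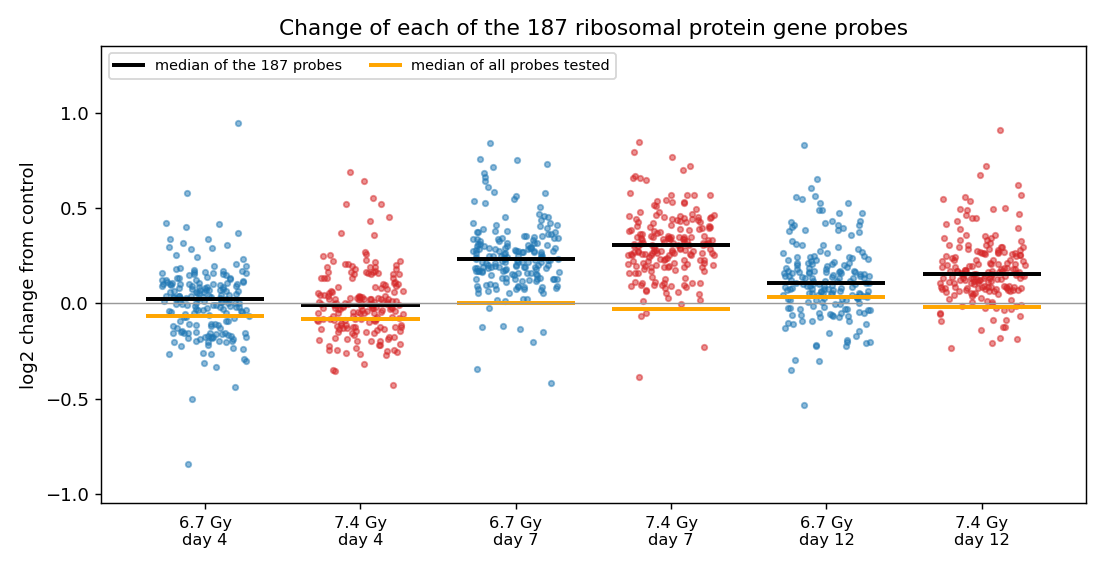
Changes of the tested ribosomal protein probes against control (y axis, log2 difference of mean levels) in the 6 irradiated groups (x axis); each point is a probe, black lines are their medians and orange lines the medians of all probes tested. On day 7 the points sit mostly above 0, with medians of 0.23 and 0.31, and on day 4 they are spread around 0.

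More ribosomal protein probes were separated from the controls on day 7 than on day 4. After 6.7 Gy, 23 probes of 12 genes had every irradiated array above every control array, while 3.99% of all probes did. After 7.4 Gy there were 63 such probes of 32 genes, while 5.87% of all probes did. In both groups, 0 ribosomal protein probes had every irradiated array below every control, against 3.16% and 5.38% of all probes. On day 12, with 2 arrays a group, 23 and 45 probes lay wholly above the controls, against 10.1% and 8.503% of all probes. RPS2, RPL35A, RPL7 and RPL10A each had several separated probes in both day 7 groups, while RPL12, with 5 such probes after 7.4 Gy, had 1 after 6.7 Gy.

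RPS2, a small-subunit protein near the mRNA entry channel, had 5 probes, all higher than control in both day 7 groups, with gene medians of 0.66 after 6.7 Gy and 0.70 after 7.4 Gy. Probe A_01_P1682625 had levels of 5.81, 5.52, 5.65 and 5.73 in controls, 6.14, 6.10, 6.28 and 6.21 on day 7 after 6.7 Gy, and 6.25, 6.38, 6.28 and 6.07 after 7.4 Gy. Every day 7 array lay above every control array. The changes were 0.50 ± 0.13 and 0.57 ± 0.14 (SE, n = 4 and 4), with adjusted p = 0.194 and 0.114.

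A second RPS2 probe, A_01_P1786371, had 5.15, 4.94, 5.21 and 4.90 in controls and 5.73, 5.87, 5.90 and 5.76 on day 7 after 7.4 Gy. These groups were well separated, and the change of 0.77 ± 0.14 had the smallest adjusted p of any ribosomal protein probe against control, 0.0596. After 6.7 Gy the same probe was 0.75 ± 0.16 higher (adjusted p = 0.128), also without overlap. On day 12 it had 5.10 and 5.15 after 6.7 Gy, within the control range, and 5.27 and 5.19 after 7.4 Gy, the first just above it.

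RPS24, another small-subunit protein, gave different readings at different probes. Probe A_01_P1757401 had control levels of 4.51, 4.85, 5.65 and 4.60 and day 7 levels of 5.92, 5.62, 5.73 and 5.72 after 7.4 Gy. Control replicate 3 reached into the irradiated range, and the change was 0.85 ± 0.25 (adjusted p = 0.154). Probe A_01_P1680591 had 7.38, 7.18, 7.99 and 7.61 in controls and 7.70, 7.25, 7.84 and 7.90, with a change of 0.13 ± 0.22 (adjusted p = 0.797). RPS24 was the gene with the widest spread among its probes on day 7 after 7.4 Gy, 0.714, against a median of 0.169 over the 49 genes with several probes.

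RPL22, a large-subunit protein that is not needed for translation itself, had the largest positive change on day 7 after 6.7 Gy. Its probe A_01_P1809231 had 1.86, 2.30, 1.82 and 0.91 in controls and 3.57, 2.34, 1.78 and 2.56 on day 7. The groups overlapped and both spread widely, and the change of 0.84 ± 0.40 did not pass (adjusted p = 0.504). The 5 RPL22 probes had changes from 0.23 to 0.84 after 6.7 Gy and from 0.26 to 0.66 after 7.4 Gy. The largest negative changes after 6.7 Gy were those of 3 RPL7L1 probes, at −0.42, −0.35 and −0.21, and after 7.4 Gy those of RPL3L, at −0.39, RPS19BP1, at −0.23, and an RPL7L1 probe, at −0.07.

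RPL15, a large-subunit protein, had a probe with a higher level at every time. Probe A_01_P1831186 had 2.49, 2.05, 2.35 and 2.41 in controls, 2.87, 3.14, 2.66 and 2.94 on day 4 after 6.7 Gy, and 2.54, 3.18, 3.06 and 2.72 after 7.4 Gy. On day 7 it had 3.19, 3.22, 2.95 and 2.97 after 6.7 Gy and 3.24, 2.79, 2.85 and 3.05 after 7.4 Gy, and on day 12 they were 2.91 and 3.40, then 3.29 and 3.18. All 20 irradiated arrays lay above all 4 controls.

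The changes of that RPL15 probe were 0.58, 0.55, 0.76, 0.66, 0.83 and 0.91 in the order of these groups, with adjusted p between 0.0827 and 0.531. These 6 comparisons share the same 4 control arrays. The 3 other RPL15 probes, matched to the same accession, had changes between −0.12 and 0.03 on day 4 and between 0.09 and 0.44 on day 7. On day 12 they had −0.05 to 0.02 after 6.7 Gy and 0.17 to 0.33 after 7.4 Gy. The 4 probes of RPL15 thus disagreed in size and, on day 4 and on day 12 after 6.7 Gy, in sign.

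Other members chosen for their roles had small changes on day 7. RPLP0 had 6 probes between 0.01 and 0.47 after 6.7 Gy and between 0.31 and 0.57 after 7.4 Gy, RPLP1 had 3 probes between 0.09 and 0.24 and between 0.09 and 0.27, and RPLP2 had a pair at 0.19 and 0.22 and at 0.09 and 0.11. RPS3, which lies at the mRNA entry site and also acts in DNA repair, had 3 probes between 0.18 and 0.29 and between 0.31 and 0.39. RPL23, RPL26 and RPS7, which can bind MDM2 when free, had probes between 0.02 and 0.46 after 6.7 Gy and between 0.10 and 0.57 after 7.4 Gy. RPS27A, made as a fusion with ubiquitin, had 2 probes at 0.17 and 0.24 and at 0.31 and 0.35. None of these passed, and the smallest adjusted p among them was 0.122, for RPLP0 after 7.4 Gy. The reference annotation gives both RPS27A probes another symbol, LOC718909, so their assignment to RPS27A is uncertain.

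By day 12 the shift was smaller, with 2 arrays in each group. The median change was 0.10 after 6.7 Gy, with 142 of 187 probes higher (75.9%), and 0.16 after 7.4 Gy, with 166 higher (88.8%). Over all probes 54.6% and 48.0% were higher. No 7.4-Gy day 12 array shared a slide or scan day with a control, and with the slide or the scan day as a block in the model of all arrays, which rests on the other groups, the 7.4-Gy median was 0.06 and 0.05. None passed after 6.7 Gy, where 0.0071% of all probes passed, and none after 7.4 Gy, where 0.00355% passed (limma), while 4 and 3 ribosomal protein probes had an unadjusted p below 0.05 (7.00% and 8.41% of all probes did) and the methods' t-test gave 0 and 0. The array medians were 6.08 and 6.35, and 6.20 and 6.40, which overlapped with the control range of 6.03 to 6.27.

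Next to the RPL15 probe, the largest positive changes on day 12 were 0.65 for RPS21 and 0.61 for the RPS24 probe A_01_P1757401 after 6.7 Gy, and 0.72 for an RPS7 probe and 0.67 for the same RPS24 probe after 7.4 Gy. The largest negative changes were −0.54, −0.35 and −0.30 for single probes of RPL7A, RPL10 and RPL17 after 6.7 Gy, and −0.24 and −0.21 for the 2 probes of RPS12 and −0.19 for the RPS24 probe A_01_P1680591 after 7.4 Gy. The smallest adjusted p among these was 0.635.

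Day 7 was also compared with day 4 at the same dose, in the model of all 24 arrays. Its counts are not on the same footing as those against control, which came from the arrays of both groups alone: fitted in that way, 0 probes passed after either dose. After 7.4-Gy TBI, 10 probes of 6 genes were higher on day 7 than on day 4, with 4.76% of all probes passing in either direction and 2.84% passing upward. After 6.7-Gy TBI, 3 probes of 3 genes were higher, with 4.32% and 2.5% of all probes. The 10 of 187 are 5.35% and the 3 are 1.60% of the tested probes, beside the upward backgrounds of 2.84% and 2.5%. None was lower. The median change was 0.31 after 7.4 Gy, with 179 of 187 probes higher, and 0.24 after 6.7 Gy, with 175 higher, whereas over all probes 54.9% and 57.2% were higher. No change reached the 2-fold limit of the methods. Day 4 arrays held slide positions 1 and 2, and day 7 arrays held positions 3 and 4. Day and array position cannot be told apart here.

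Of the 10 probes after 7.4 Gy, 4 belonged to RPS2. Probe A_01_P1682625 had levels of 5.30, 5.62, 5.61 and 5.96 on day 4 and 6.25, 6.38, 6.28 and 6.07 on day 7. The groups did not overlap, and the change was 0.62 ± 0.13 (n = 4 and 4, adjusted p = 0.0124, limma). The 3 other RPS2 probes rose by 0.77, 0.71 and 0.70 (adjusted p = 0.0287, 0.0296 and 0.0473), and the day 4 array of replicate 4 reached the day 7 range for the first and the third of them.

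RPS10, a small-subunit protein, rose at probes A_01_P1745301 and A_01_P1692216. The first had 4.05, 4.46, 4.30 and 4.43 on day 4 and 4.78, 4.88, 4.85 and 4.65 on day 7 after 7.4 Gy. All day 7 arrays lay above all day 4 arrays, and the change was 0.48 ± 0.11 (adjusted p = 0.0200). The second rose by 0.47 (adjusted p = 0.0447), with overlap of the 2 groups at 3.41.

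The 4 other probes that rose after 7.4 Gy were of large-subunit proteins. RPL9 had 4.83, 5.24, 5.09 and 4.52 on day 4 and 5.65, 5.65, 5.35 and 5.41 on day 7, a change of 0.60 ± 0.16 without overlap (adjusted p = 0.0343). RPL7A rose by 0.49 at probe A_01_P1745501 (adjusted p = 0.0371), RPL35A by 0.45 at A_01_P1709026 (adjusted p = 0.0423) and RPL13A, which also takes part in interferon-dependent translational silencing, by 0.45 at A_01_P1697121 (adjusted p = 0.0443). None of these 3 had day 4 values within the day 7 range.

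After 6.7 Gy the 3 probes that rose from day 4 to day 7 were of RPS26, RPLP2 and RPL10. RPS26, a protein of the mRNA exit channel, had 6.28, 6.17, 6.45 and 6.20 on day 4 and 7.00, 6.60, 6.83 and 6.88 on day 7 at probe A_01_P1723381, a rise of 0.56 ± 0.15 (adjusted p = 0.0392). RPLP2 probe A_01_P1717146 had the day 4 values given above and 7.80, 7.33, 7.49 and 7.58 on day 7, a rise of 0.48 ± 0.12 (adjusted p = 0.0284). RPL10 probe A_01_P1684436 had 7.46, 7.09, 7.31 and 7.42 on day 7, a rise of 0.41 ± 0.11 (adjusted p = 0.0356). In all 3 the days were separated without overlap, and for RPLP2 and RPL10 the day 7 arrays overlapped with the controls.

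RPS26 was also the sole ribosomal protein gene to pass between day 4 and day 12 after 7.4 Gy, where 3.75% of all probes passed and 1.51% passed upward. Its probe A_01_P1723381 had 6.06, 6.22, 6.27 and 6.56 on day 4 and 6.88 and 7.02 on day 12, a rise of 0.68 ± 0.18 (n = 2 and 4, adjusted p = 0.0442). This call was lost, with 0 passing, under 15 of 21 other settings and without any 1 of 5 of the 6 arrays, day 4 replicate 4 being the exception. On day 7 after the same dose the values were 6.41, 6.12, 6.89 and 6.59, and the difference from day 4 of 0.22 did not pass (adjusted p = 0.433). After 6.7 Gy no ribosomal protein probe passed between days 4 and 12, where 1.32% of all probes did. In that comparison 10 (5.35%, against 17.7% of all probes) had an unadjusted p below 0.05 and the methods' t-test gave 0.

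These calls depended on few arrays. Without replicate 1 of the 7.4-Gy day 4 group, the lowest of its group for RPS2 and RPS10, none of the 10 probes passed, and without replicate 4 of that group 29 ribosomal protein probes passed. With slide 5 left out, 0 passed after 7.4 Gy and 1 after 6.7 Gy. On the 12 arrays with high RPS4Y2 alone, with 2 arrays a group, 0 passed after either dose, and with high or low RPS4Y2 as a block on all arrays 10 and 3 passed.

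**Figure D4:**
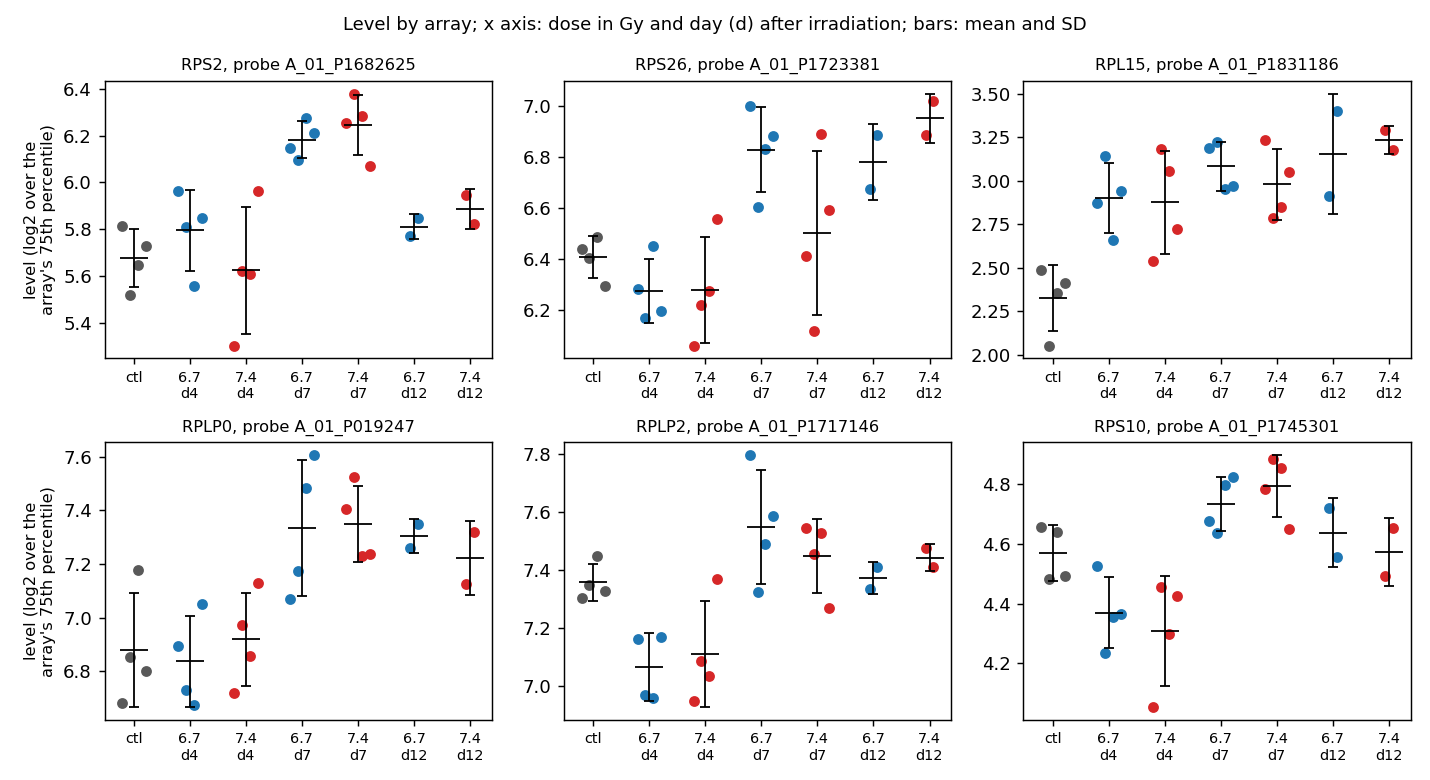
Levels of single probes of RPS2, RPS26, RPL15, RPLP0, RPLP2 and RPS10 on each array (y axis, log2 over the array's 75th percentile) by group (x axis); points are arrays and bars show the mean ± SD of the group. RPS2 lies at 6.07 to 6.38 on day 7 after 7.4 Gy and at 5.30 to 5.96 on day 4, and RPL15 lies above its controls in every irradiated group.

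Across all 7 groups in 1 model, 9 probes differed between groups by the moderated F test, with 9.96% of all probes passing. They belonged to RPS2 (4 probes), RPL15, RPS26, RPS10, RPLP0 and RPS12. RPLP0 probe A_01_P019247, of the stalk base and a common reference gene, had 6.68, 6.86, 7.18 and 6.80 in controls, 7.07, 7.17, 7.48 and 7.61 on day 7 after 6.7 Gy, and 7.41, 7.52, 7.23 and 7.24 after 7.4 Gy (F test, adjusted p = 0.0451). After 7.4 Gy the values lay above all controls, and after 6.7 Gy they overlapped with control replicate 3.

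RPS12, a small-subunit protein, had 7.32, 7.17, 7.39 and 7.09 in controls at probe A_01_P1686176, 7.93, 7.70, 7.58 and 7.87 on day 7 after 7.4 Gy, and 7.07 and 7.00 on day 12 (F test, adjusted p = 0.0470). The day 7 values lay above all controls and the day 12 values below them. With slide 5 left out none of the 9 passed.

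No ribosomal protein probe passed between the doses. Between 7.4 Gy and 6.7 Gy 0 passed on day 4, on day 7 and on day 12, as did 0% of all probes on day 4, 0% on day 7 and 0% on day 12 (limma). On day 12 the lower dose was on slides 3 and 4 and the higher on slides 5 and 6, scanned on another day, so that dose and slide or scan day cannot be told apart directly. At an unadjusted p below 0.05 there were 0, 2 and 1 ribosomal protein probes, against 2.38%, 6.08% and 4.92% of all probes, and the methods' t-test with adjustment gave 0 each time. The median difference between doses was −0.02, 0.07 and 0.06. For the RPS2 probe A_01_P1682625 the day 7 difference was 0.06, with a 95% interval from −0.21 to 0.34, and for the RPS26 probe A_01_P1723381 it was −0.33, from −0.64 to −0.02 (adjusted p = 0.817). These intervals do not show that the doses act alike.

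Mitochondrial ribosomal proteins, which are encoded in the nucleus and build the separate ribosome of the organelle, were also higher than control on day 7. Of 64 genes 63 were tested with 1 probe each, and the median change was 0.00 and −0.09 on day 4, 0.18 and 0.29 on day 7, and −0.05 and 0.13 on day 12, for 6.7 Gy and 7.4 Gy. The cytosolic set reduced to 1 probe for each of its 61 genes had 0.02 and −0.02, 0.22 and 0.27, and 0.13 and 0.16. From day 4 to day 7 after 7.4 Gy, 62 of the 63 mitochondrial genes were higher and 8 passed upward, against 57 of 61 and 2 in the cytosolic set, while 53.04% of all genes were higher and 2.92% passed upward. The 2 smallest p-values were those of MRPL37 (0.68, adjusted p = 0.0149) and MRPL11 (0.51, adjusted p = 0.0201). After 6.7 Gy MRPS36 was the 1 gene of the list that passed, 1.00 higher on day 7 than on day 4 (adjusted p = 0.0113), while 2.65% of all genes passed upward. MRPL41 was 0.66 lower than control on day 4 after 7.4 Gy (adjusted p = 0.0455).

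Ribosome biogenesis factors, which process ribosomal RNA and assemble the subunits, were described with the same measures. Of 28 tested genes 27 and 25 were higher than control on day 4, with medians of 0.43 and 0.35, while 45.7% and 43.7% of all genes were higher. RPF2, which brings the 5S particle into the large subunit, was the 1 gene that passed, up-regulated by 1.24 and 1.21 (adjusted p = 0.0314 and 0.0145), and 2.41% and 3.53% of all genes passed upward. On day 7 the medians were 0.12 and 0.31. From day 4 to day 12 after 6.7 Gy, RPF2 fell by 1.55 and BYSL, a factor of small-subunit maturation, fell by 1.09 (adjusted p = 0.0218 and 0.0247).

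Of 11 other genes with oligopyrimidine-tract mRNAs, NAP1L1, a histone chaperone, was the 1 that passed, 0.79 higher on day 4 after 6.7 Gy (adjusted p = 0.0416). HNRNPA1 of that list was 0.69 higher (adjusted p = 0.121). Of 23 initiation factors none passed against control, and EIF4A1, the RNA helicase of the cap-binding complex, fell by 0.70 between day 4 and day 12 after 6.7 Gy (adjusted p = 0.0406). EIF2S1 of that list had a change of −0.42 (adjusted p = 0.229). Of 13 regulators of ribosome synthesis, SESN1, an mTORC1 inhibitor induced by p53, was 0.89 higher on day 4 after 7.4 Gy (adjusted p = 0.0318), and MYC was 0.62 higher (adjusted p = 0.0627).

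Several p53 targets and partners changed on day 4. EDA2R, GDF15, BAX, CDKN1A and RPS27L passed in both dose groups, 5 of 8 genes, with EDA2R 3.68 and 3.82 higher and GDF15 4.00 and 3.86 higher. Of all genes, 2.41% and 3.53% passed upward and 1.78% and 2.52% downward. RPS27L, a p53-inducible paralog of RPS27 left out by the rule, had mean levels of 3.52 in controls, 4.53 and 4.60 on day 4 and 3.76 and 3.62 on day 7. Its day 4 changes of 1.01 and 1.08 passed (adjusted p = 0.0355 and 0.0173), and no probe among the 187 passed in the same comparisons. MDM2 was −0.06 and −0.00 from control (adjusted p = 0.872 and 0.997).

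**Figure D5:**
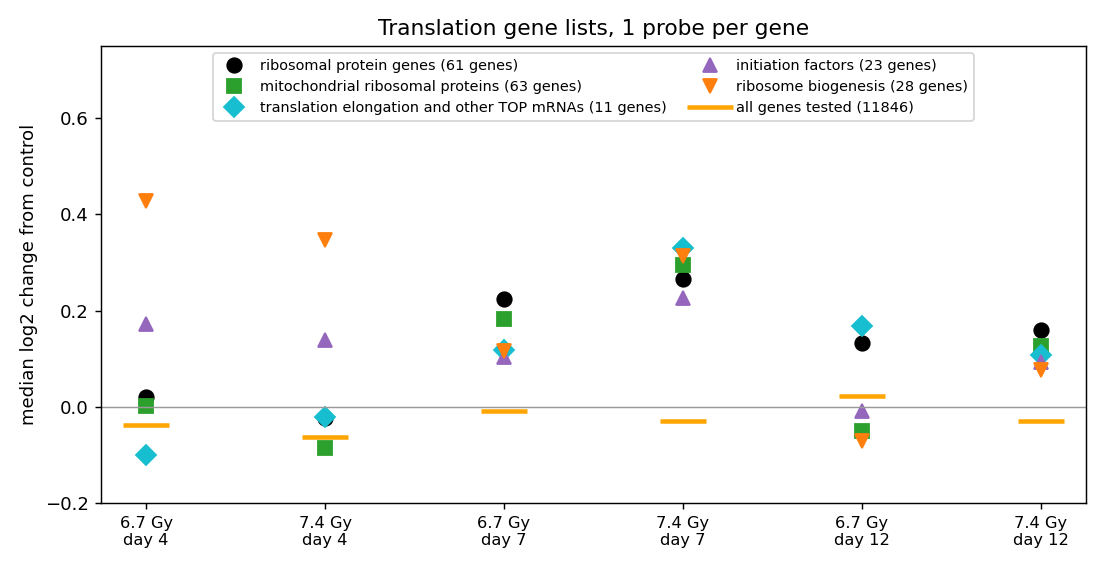
Median change against control (y axis, log2) of the ribosomal protein genes and of related gene lists, with 1 probe for each gene, beside all genes tested, in the 6 irradiated groups (x axis). The ribosomal protein genes lie at 0.02 and −0.02 on day 4 and at 0.22 and 0.27 on day 7, while the biogenesis list is highest on day 4 at 0.43 and 0.35.

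The summed level of markers of crypt base and cycling cells was above control on day 7. In mean it was so on day 4 too, when the ribosomal protein medians were near 0. Of 8 such markers 5 were measured, and their summed level on a log2 scale was 2.89 to 3.29 in controls, 3.33 to 4.08 and 3.08 to 4.17 on day 4, 3.46 to 4.36 and 3.77 to 4.69 on day 7, and 3.16 to 3.69 and 3.61 to 3.74 on day 12. All day 7 arrays lay above all controls, as did all arrays of 6.7 Gy on day 4. The sum was set mostly by PCNA, TOP2A and CCNB1, of cycling cells, with mean levels of 2.33, 1.92 and 1.55. The crypt base markers OLFM4 and LGR5 had mean levels of −1.17 and −2.82, so the sum says little on crypt base cells. TOP2A and CCNB1, genes of chromosome segregation and mitotic entry, rose by 1.14 and 1.13 from day 4 to day 7 after 7.4 Gy (adjusted p = 0.0399 and 0.0405).

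Markers of absorptive enterocytes were below control on day 4 already, with 7 of 10 measured and summed levels of 8.85 to 9.14 in controls, 8.37 to 8.58 and 8.22 to 8.80 on day 4, 8.07 to 8.90 on day 7 after 6.7 Gy and 7.85 to 8.57 after 7.4 Gy. Both day 4 ranges and the 7.4-Gy day 7 range lay wholly below the controls. Fibroblast and matrix markers, all 5 measured, had median changes of 0.80 and 1.14 on day 4 and of −0.25 and 0.34 on day 7. On day 4, 1 and 4 of them passed, while 2.41% and 3.53% of all genes passed upward and 1.78% and 2.52% downward. T cell markers, 4 of 6 measured, were lower on day 7 than on day 4 in all 4 genes at both doses. After 7.4 Gy 3 of them passed, where 2.28% of all genes passed downward. B and plasma cell markers, 4 of 7 measured, had summed levels of 1.61 to 2.95 in controls, 0.31 to 1.14 and 0.50 to 1.23 on day 4, and 0.62 to 0.87 and 0.81 to 1.44 on day 7, below the controls at both times. Macrophage markers, 3 of 5 measured, had 1.25 to 1.64 in controls and 0.47 to 0.87 and 0.58 to 1.48 on day 7, below the controls after 6.7 Gy alone. The part of these changes in cell content in the levels of the ribosomal protein genes was not tested.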

How the data were processed

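RNA from jejunum was hybridised in 1 colour (Cy3) to Agilent rhesus arrays, 4 to a slide on 6 slides. The deposited intensity values were background-subtracted processed signals made by the authors with Feature Extraction 11.0.1.1. The authors' deposited normalized log2 values, scaled to the 75th percentile and centred on each probe's median, were an alternative, and the grid's build was rheMac2. Here, log2 processed signal minus the array's 75th percentile was tested with limma 3.58.1 in R 4.3.3. Probes had to exceed background clearly on each array of 1 or more of the 7 groups (28168, 64.6%), and p-values were Benjamini-Hochberg adjusted over all of them; passing meant an adjusted p below 0.05. Comparisons with control used the arrays of both groups; the others and the F test used 1 model of 24 arrays. The t-test and the 2-fold limit of the methods were alternatives. Normexp (offset 50) used median signals. The script was tested on simulated data. Members and lists were chosen with earlier results of these data known. Named were the 3 largest rises and falls against control among probes well above background in both groups, probes that passed, and members with set roles; in other lists, the 2 smallest p-values where most passed, and single genes that passed, named after their values were seen. Spread between samples may be partly technical, and the number of arrays limits the precision.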

Additional observations from a re-analysis of the deposited data

Results flagged for a closer look

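Among the ribosomal protein probes named here, 10 values stood apart from the other 3 arrays of their group, by a gap that exceeded the 95% critical value of Dixon's test. With 180 group values examined, chance flags about 1 in 20. On day 4 after 6.7 Gy, RPL3L was at −3.28 on replicate 1 (others −2.19 to −2.10), RPS12 probe A_01_P1680436 at 6.10 on replicate 3 (7.02 to 7.13), RPL7A probe A_01_P1742906 at 5.98 on replicate 2 (6.94 to 7.10) and RPL17 at 4.89 on replicate 3 (5.21 to 5.27). On day 4 after 7.4 Gy, RPS12 probe A_01_P1686176 was at 7.04 on replicate 1 (7.48 to 7.54) and RPL7L1 probe A_01_P1758550 at 0.42 on replicate 4 (0.06 to 0.10). On day 7 after 6.7 Gy, RPL7L1 probe A_01_P1744436 was at −1.23 on replicate 1 (−0.22 to −0.03). On day 7 after 7.4 Gy, RPS10 probe A_01_P1692216 was at 3.41 on replicate 4 (3.62 to 3.64), RPL35A at 6.28 on replicate 1 (6.04 to 6.06) and RPL17 at 5.68 on replicate 1 (5.35 to 5.40).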

How the results depend on the processing

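The 6 median changes against control kept within 0.144, the pooled within-group SD of the array medians, under every setting run. The day 7 medians ranged from 0.16 to 0.25 (6.7 Gy) and from 0.24 to 0.34 (7.4 Gy), and with 1 array left out from 0.19 to 0.30 and from 0.26 to 0.33. Counts of ribosomal protein probes that passed were less stable, and the cause was not tested. Against control the count of 0 on day 4 after 6.7 Gy became 1 with normexp, quantile normalization, only probes above background on all arrays, all arrays in 1 model, or the slide as a random block. The last 2 also gave 1 on day 4 after 7.4 Gy, and the random block gave 1 on day 7 after 6.7 Gy. With 7.4 Gy on day 7, 1 passed with normexp, the methods' t-test or the scan day as a block, 2 with only probes above background on all arrays, trend and robust fits or the slide as a fixed block, 11 with all arrays in 1 model, and 13 with the slide as a random block or with RPS4Y2 high or low as a block. Between days 4 and 7 after 6.7 Gy, 3 became 0 with the 2-fold limit, the percentile over probes above background on all arrays, quantile normalization, no filter, the t-test, the 2 groups fitted alone, slides 4 and 5 left out, or the arrays with RPS4Y2 high or low alone. It became 1 with normexp, 1 probe per symbol or slide 5 left out, 5 with the scan day, and 6 with only probes above background on all arrays or the slide as a fixed or random block. After 7.4 Gy, 10 became 0 with the 2-fold limit, the t-test, the 2 groups alone, slide 5 or slides 4 and 5 left out, or RPS4Y2 high or low alone, 1 with quantile normalization, 2 with no filter or 1 probe per symbol, 4 with the other percentile, 18 with only probes above background on all arrays or the slide as a random block, and 21 with normexp. The 1 probe between days 4 and 12 after 7.4 Gy was lost (0) in all those settings except only probes above background on all arrays and the random slide block, and also with the scan day or the slide as a fixed block. For the F test, 9 became 0 with slide 5 or slides 4 and 5 left out or RPS4Y2 high or low alone, 1 with no filter, 3 with 1 probe per symbol, 4 with quantile normalization, 5 with the other percentile, 15 with only probes above background on all arrays and 16 with the random slide block. Settings on left-out slides and RPS4Y2 were chosen after seeing the data. Replicate numbers were not taken to pair the samples: same-number correlations ran from −0.165 to 0.334 over 62 pairs, and 6 of 16 arrays matched the control of their own number best. For 6.7 Gy on day 7 all 4 arrays did, with correlations of 0.0950 to 0.238. There the same number also marks the same slide and the same RPS4Y2 class, and 0 passed with the block. With the replicate block 5 passed between days 4 and 7 after 7.4 Gy, 0 between days 4 and 12 after 7.4 Gy, and 5 by the F test. With 1 array left out in turn, counts against control stayed at 0 to 0, and ranged from 0 to 2 between days 4 and 7 after 6.7 Gy (0 without day 4 replicate 2 or 3 or day 7 replicate 1 or 3, and 1 without replicate 4 of either day), from 0 to 29 after 7.4 Gy (0 without day 4 replicate 1, 1 without day 4 replicate 3 or day 7 replicate 1 or 2, 2 without day 7 replicate 3, 4 without day 4 replicate 2, 29 without day 4 replicate 4), from 0 to 1 between days 4 and 12 after 7.4 Gy (0 without day 4 replicate 1, 2 or 3 or either day 12 array), and from 3 to 11 for the F test (3 without 6.7-Gy day 7 replicate 3, 4 without control replicate 2, 6.7-Gy day 4 replicate 2 or 7.4-Gy day 12 replicate 1, 5 without control replicate 4, 7.4-Gy day 4 replicate 1, 2 or 3, 7.4-Gy day 7 replicate 1 or 6.7-Gy day 12 replicate 1). Array position as a block could not be fitted for days 7 and 12 against control or day 4. Control and day 4 arrays held positions 1 and 2, and the later arrays 3 and 4. Dim probes limit RPL3L and RPS4Y2.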

Other observations

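A further 157 probes were described on the array as cytosolic ribosomal proteins but carried a symbol outside the rule. Of these 142 were tested, and their median change was 0.03 and −0.02 on day 4, 0.24 and 0.31 on day 7, and 0.08 and 0.16 on day 12, for 6.7 Gy and 7.4 Gy. On day 4, 1 and 1 passed, beside 3.61% and 5.37% of all probes, and on day 7 none did, beside 0.0639% and 0.305% (limma). On day 7, 129 and 122 of them were higher than control, while 49.9% and 46.6% of all probes were. Between day 4 and day 7 after 7.4 Gy 11 passed, beside 4.76% of all probes, and after 6.7 Gy 0 did, beside 4.32%. These probes come from the same arrays as the 187 and may read the same transcripts.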
